A study of Arabidopsis thaliana with 33 samples.

Results

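The cell cycle and DNA replication genes described here are the probe sets whose single gene symbol in the platform annotation starts with CYCA, CYCB, CYCD, CDKA, CDKB, CDC, MCM, ORC, PCNA or KRP, together with the MCM2 probe set. Of 22746 probe sets in the table, 2 were found by this rule, CDC27a (AT3G16320) through its symbol and MCM2 (AT1G44900) by name. The annotation used here gives 1 gene for 13513 probe sets, several for 503 and none for 8730, so cyclin, CDK, ORC, PCNA and KRP genes were not analysed here. MCM2 is among the unnamed probe sets, and its gene comes from the rule and from the list of changed genes that accompanies the study. Its changes were therefore known when it was named, and they are given as a description of these arrays.

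Replication of the genome starts at origins, where a ring of MCM proteins is loaded onto the DNA and later joins CDC45 and the GINS complex to form the helicase that opens the fork. MCM2 is 1 subunit of that ring. CDC27a is a subunit of the anaphase-promoting complex, the ubiquitin ligase that marks mitotic cyclins for breakdown, and Arabidopsis has another CDC27 gene, HOBBIT, also called CDC27b. In seedlings, dividing cells are concentrated in the meristems and in young organs, and most cells of a whole root or shoot sample no longer divide. In such bulk samples fewer dividing cells and less RNA per dividing cell cannot be told apart.

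The arrays came from roots and shoots of Arabidopsis thaliana ecotype Wassilewskija (WS), 10 d old and grown in continuous light, after 24 h in 1 of 6 atmospheres. Roots were measured on 15 Affymetrix ATH1 arrays and shoots on 18. The atmospheres were 50 kPa total pressure with 10 kPa oxygen (3 root and 3 shoot arrays), 50 kPa/NormOx with oxygen restored to 21 kPa (2 and 4), 25 kPa with 5 kPa oxygen (3 and 3), 25 kPa/NormOx with 21 kPa oxygen (1 and 3), 97 kPa/HypOx, which kept normal pressure with oxygen lowered to about 5 kPa (3 and 2), and 97 kPa with 21 kPa oxygen as the control (3 and 3). Each array stands for 1 tube of about 12 seedlings, and 3 chambers were used per atmosphere. The 4 shoot arrays at 50 kPa/NormOx therefore cannot all come from different chambers. Levels are log2 values after Robust Multi-chip Average (RMA) normalization, made separately for roots and shoots, so levels were not tested between organs.

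Root 97 kPa replicate 1 correlated with the other root arrays at a mean r of 0.884, against 0.966 to 0.98 for the other 14, and shoot 50 kPa/NormOx replicate 1 correlated at 0.898, against 0.974 to 0.983 for the other 17 shoot arrays. Both arrays also stood apart in the root hair expansin genes EXPA7 and EXPA18, the 2 root markers of 12 sought that the annotation names. EXPA7 was 8.36 on that root array, against 6.70 to 7.58 on the other root arrays, and 7.11 on that shoot array, against 4.24 to 5.50 on the other shoot arrays. EXPA18 was 9.21 on that root array, against 7.29 to 8.50, and 6.71 on that shoot array, against 4.03 to 5.56. The shoot marker RCA, which encodes Rubisco activase, was 12.3 to 12.7 in shoots and 6.01 to 7.25 in roots, with neither array outside the range of the others, and only 2 of 11 shoot markers sought, RCA and PORB, were named. Values of MCM2 that rest on either array are given with and without it, and the part of root tissue or other differences between these arrays in the results was not tested.

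MCM2 lay near the middle of all probe sets in both organs, where the median level was 5.12 in roots and 5.14 in shoots. In roots its log2 level was 4.71, 5.31 and 5.54 at 50 kPa, 5.33 and 5.63 at 50 kPa/NormOx, 5.07, 5.00 and 5.02 at 25 kPa, 5.74 at 25 kPa/NormOx, 5.05, 5.11 and 5.05 at 97 kPa/HypOx, and 4.09, 4.90 and 5.02 at 97 kPa. The 3 arrays under restored oxygen were among the 4 highest of the 15, and the lowest was the outlying 97 kPa array. From the highest, the group means were 5.74 at 25 kPa/NormOx (1 array), 5.48 ± 0.21 at 50 kPa/NormOx (SD, n = 2), 5.19 ± 0.43 at 50 kPa (n = 3), 5.07 ± 0.04 at 97 kPa/HypOx (n = 3), 5.03 ± 0.04 at 25 kPa (n = 3) and 4.67 ± 0.51 at 97 kPa (n = 3). Neighbours in that order overlapped in their arrays, except that the single 25 kPa/NormOx array stood above both 50 kPa/NormOx arrays.

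**Figure D1:**
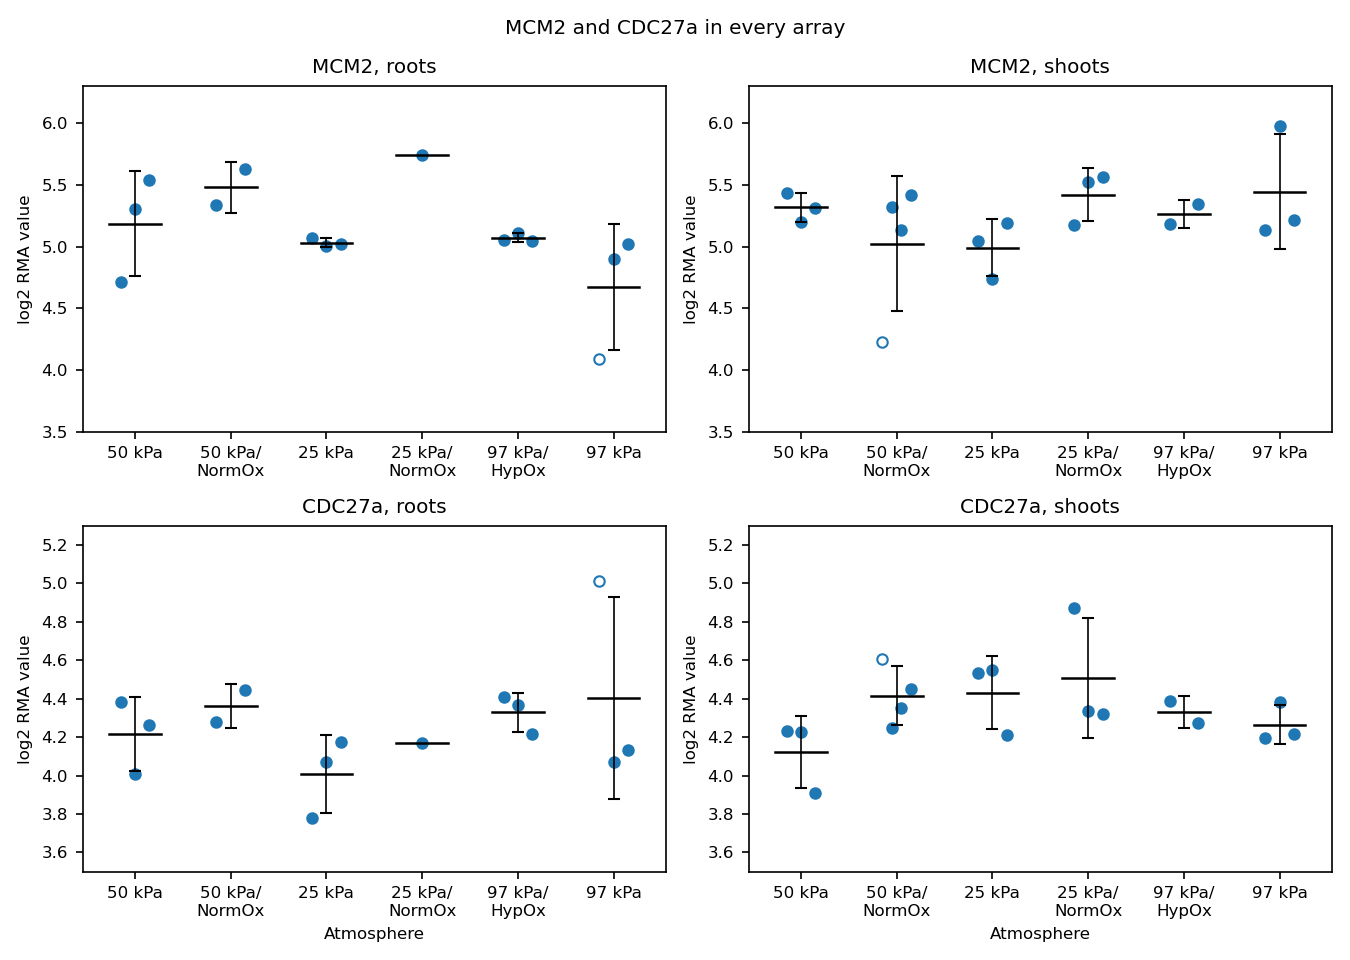
Log2 RMA values of MCM2 (upper panels) and CDC27a (lower panels) in every root and shoot array, by atmosphere. Points are arrays, horizontal bars are group means and whiskers are SDs, and the open points are root 97 kPa replicate 1 and shoot 50 kPa/NormOx replicate 1. MCM2 on the open root point is 4.09, below every other root array, and CDC27a on the same array is 5.01, above every other root array.

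MCM2 was higher in roots under all 5 treatments than at 97 kPa in the fit of all root arrays, and 1 of these differences passed the study's threshold of an unadjusted p under 0.01 with at least a 2-fold change. At 25 kPa/NormOx the log2 fold change was 1.07 ± 0.34 (SE, 1 array against 3; limma adjusted p = 0.774), in a comparison where 0.0397% of all 22645 probe sets tested passed that threshold, 3.96% had an unadjusted p under 0.05 and none had an adjusted p under 0.05. At 50 kPa/NormOx it was 0.81 ± 0.27 (limma adjusted p = 0.581), where 0.0618% of probe sets passed the threshold and 6.88% had an unadjusted p under 0.05. Both groups, of 1 array at 25 kPa/NormOx and 2 at 50 kPa/NormOx, lay wholly above the 97 kPa arrays. How many of all probe sets did so was not computed.

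The other root differences did not pass that threshold, which 0.397% of probe sets passed at 50 kPa, 0.905% at 25 kPa and 0.627% at 97 kPa/HypOx. They were 0.51 ± 0.24 at 50 kPa (limma adjusted p = 0.454), 0.40 ± 0.24 at 97 kPa/HypOx (limma adjusted p = 0.542) and 0.36 ± 0.24 at 25 kPa (limma adjusted p = 0.42). Without the outlying control array the log2 fold changes were 0.78 at 25 kPa/NormOx, 0.52 at 50 kPa/NormOx, 0.22 at 50 kPa, 0.11 at 97 kPa/HypOx and 0.07 at 25 kPa, and at 25 kPa/NormOx the call under the study's threshold was lost.

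Set against each other at 1 pressure, the atmospheres with low and with restored oxygen gave lower MCM2 values at low oxygen in roots. The difference of 25 kPa from 25 kPa/NormOx was -0.71 (95% interval -1.46 to 0.04, limma adjusted p = 1), with no 25 kPa array reaching the single 25 kPa/NormOx array. That of 50 kPa from 50 kPa/NormOx was -0.29 (-0.89 to 0.30, limma adjusted p = 1), with overlapping arrays, and it ran between -0.47 and -0.06 when 1 array at a time was left out, the smallest without root 50 kPa replicate 1. Between 25 kPa and 97 kPa/HypOx, which differ in pressure at a like oxygen partial pressure, it was -0.04 (-0.57 to 0.49, limma adjusted p = 0.999). The 97 kPa arrays do not enter these differences, but they enter the spread on which the intervals and p-values rest. Without both outlying arrays the differences were again -0.71, -0.29 and -0.04. None passed the study's threshold, which 0.216% of probe sets passed between 25 kPa and 25 kPa/NormOx, 0.0397% between 50 kPa and 50 kPa/NormOx, and 0% between 25 kPa and 97 kPa/HypOx, where limma called no probe set and 1.73% had an unadjusted p under 0.05.

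In shoots MCM2 was 5.43, 5.20 and 5.31 at 50 kPa, 4.23, 5.32, 5.13 and 5.42 at 50 kPa/NormOx, 5.04, 4.74 and 5.19 at 25 kPa, 5.17, 5.53 and 5.56 at 25 kPa/NormOx, 5.18 and 5.35 at 97 kPa/HypOx, and 5.14, 5.98 and 5.21 at 97 kPa. The highest array was a control (97 kPa replicate 2) and the lowest was the outlying 50 kPa/NormOx array, and every treatment overlapped with 97 kPa. From the lowest, the group means were 4.99 ± 0.23 at 25 kPa (SD, n = 3), 5.02 ± 0.55 at 50 kPa/NormOx (n = 4), 5.26 ± 0.12 at 97 kPa/HypOx (n = 2), 5.32 ± 0.11 at 50 kPa (n = 3), 5.42 ± 0.21 at 25 kPa/NormOx (n = 3) and 5.44 ± 0.47 at 97 kPa (n = 3), and no neighbours in that order were separated.

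None of the 5 shoot differences of MCM2 passed the study's threshold, which was passed by 0.283% of probe sets at 25 kPa, 0.0486% at 50 kPa/NormOx, 0.185% at 97 kPa/HypOx, 0.106% at 50 kPa and 0.053% at 25 kPa/NormOx. They were -0.45 ± 0.27 at 25 kPa (limma adjusted p = 0.899), -0.42 ± 0.26 at 50 kPa/NormOx (limma adjusted p = 0.949), -0.18 ± 0.31 at 97 kPa/HypOx, -0.13 ± 0.27 at 50 kPa and -0.02 ± 0.27 at 25 kPa/NormOx. Without shoot 97 kPa replicate 2 the values were -0.19 at 25 kPa, -0.15 at 50 kPa/NormOx, 0.09 at 97 kPa/HypOx, 0.14 at 50 kPa and 0.25 at 25 kPa/NormOx, so 3 of the 5 changed sign. Without the outlying shoot array the difference at 50 kPa/NormOx was -0.15. Between 25 kPa and 25 kPa/NormOx the shoot difference was -0.43 (95% interval -1.02 to 0.16, limma adjusted p = 0.963), and the arrays overlapped only slightly, since 1 array at 25 kPa (5.19) exceeded 1 array at 25 kPa/NormOx (5.17). The difference of 50 kPa from 50 kPa/NormOx was 0.29 (-0.26 to 0.84, limma adjusted p = 0.623) and 0.03 without the outlying shoot array, and that of 25 kPa from 97 kPa/HypOx was -0.28 (-0.93 to 0.38, limma adjusted p = 1). MCM2 passed the study's threshold in none of these shoot contrasts, which 0.132% of probe sets passed between 25 kPa and 25 kPa/NormOx, 0.0795% between 50 kPa and 50 kPa/NormOx and 0.0221% between 25 kPa and 97 kPa/HypOx.

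**Figure D2:**
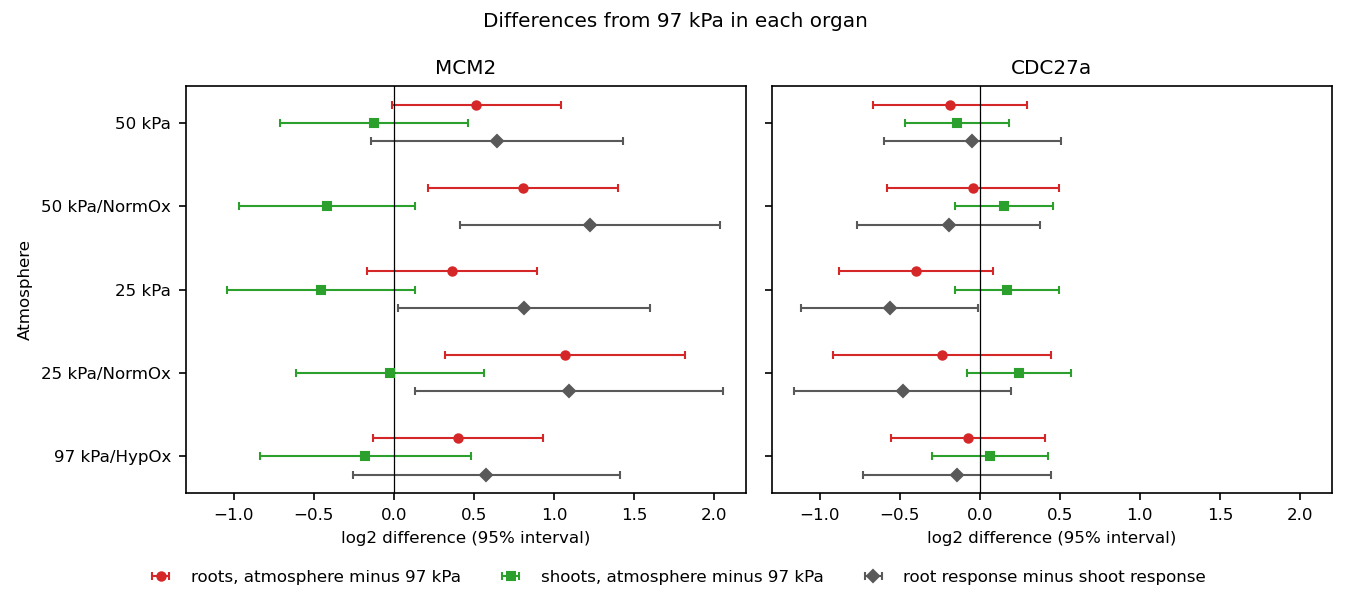
Log2 differences of MCM2 (left) and CDC27a (right) from 97 kPa in roots (circles) and shoots (squares), and the root difference minus the shoot difference (diamonds), with 95% intervals from limma. For MCM2 all 5 root values lie above 0 and all 5 shoot values below 0, and the intervals exclude 0 in roots at 50 kPa/NormOx and 25 kPa/NormOx.

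The root response of MCM2 exceeded its shoot response at all 5 atmospheres. The difference between the responses was 1.23 ± 0.39 at 50 kPa/NormOx (SE, limma adjusted p = 0.499), which passed the study's threshold, as did 0.49% of all probe sets. It was 1.09 ± 0.47 at 25 kPa/NormOx (limma adjusted p = 0.969), 0.81 ± 0.38 at 25 kPa (limma adjusted p = 0.566), 0.64 ± 0.38 at 50 kPa (limma adjusted p = 0.857) and 0.58 ± 0.40 at 97 kPa/HypOx (limma adjusted p = 0.994). The threshold was passed by 0.0618% of probe sets at 25 kPa/NormOx, 0.817% at 25 kPa, 0.344% at 50 kPa and 0.433% at 97 kPa/HypOx, and MCM2 had an unadjusted p under 0.05 at 25 kPa/NormOx (3.54% of probe sets) and 25 kPa (8.69%). The 97 kPa arrays enter all 5 of these values. Without both outlying arrays the value at 50 kPa/NormOx was 0.67 and the call was lost, and the others were 0.80 at 25 kPa/NormOx, 0.52 at 25 kPa, 0.35 at 50 kPa and 0.29 at 97 kPa/HypOx, of which only that at 25 kPa/NormOx had an unadjusted limma p under 0.05. Leaving out any 1 of 4 arrays also lost the call at 50 kPa/NormOx. The values at 50 kPa/NormOx were then 0.93 without root 97 kPa replicate 1, 1.08 without root 50 kPa/NormOx replicate 2, 0.96 without shoot 50 kPa/NormOx replicate 1 and 0.96 without shoot 97 kPa replicate 2.

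CDC27a was a dim probe set, close to the lower quartile of all probe sets (4.04 in roots and 4.24 in shoots). In roots it was 4.38, 4.01 and 4.26 at 50 kPa, 4.28 and 4.44 at 50 kPa/NormOx, 3.78, 4.07 and 4.18 at 25 kPa, 4.17 at 25 kPa/NormOx, 4.41, 4.37 and 4.22 at 97 kPa/HypOx, and 5.01, 4.07 and 4.13 at 97 kPa. Apart from the outlying control array, all root values lay between 3.78 and 4.44, and every treatment overlapped with 97 kPa. From the lowest, the root means were 4.01 ± 0.20 at 25 kPa (SD, n = 3), 4.17 at 25 kPa/NormOx (1 array), 4.22 ± 0.19 at 50 kPa (n = 3), 4.33 ± 0.10 at 97 kPa/HypOx (n = 3), 4.36 ± 0.12 at 50 kPa/NormOx (n = 2) and 4.41 ± 0.53 at 97 kPa (n = 3), and no neighbours in that order were separated.

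In shoots CDC27a was 4.23, 4.23 and 3.91 at 50 kPa, 4.61, 4.25, 4.35 and 4.45 at 50 kPa/NormOx, 4.54, 4.55 and 4.21 at 25 kPa, 4.87, 4.34 and 4.32 at 25 kPa/NormOx, 4.39 and 4.27 at 97 kPa/HypOx, and 4.19, 4.38 and 4.22 at 97 kPa. The lowest array was at 50 kPa and the highest at 25 kPa/NormOx, and every treatment overlapped with 97 kPa. From the lowest, the means of the treatments were 4.12 ± 0.19 at 50 kPa (SD, n = 3), 4.33 ± 0.08 at 97 kPa/HypOx (n = 2), 4.42 ± 0.15 at 50 kPa/NormOx (n = 4), 4.43 ± 0.19 at 25 kPa (n = 3) and 4.51 ± 0.31 at 25 kPa/NormOx (n = 3), against 4.26 ± 0.10 at 97 kPa (n = 3). Neighbouring treatments in that order overlapped, except that all arrays at 50 kPa lay below both at 97 kPa/HypOx.

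No comparison of CDC27a passed the study's threshold. Its root differences from 97 kPa ran from -0.40 ± 0.22 at 25 kPa (SE, limma adjusted p = 0.365) to -0.04 ± 0.25 at 50 kPa/NormOx, and its shoot differences from -0.14 ± 0.15 at 50 kPa to 0.24 ± 0.15 at 25 kPa/NormOx (limma adjusted p = 1). Without the outlying root control the root values were -0.09 at 25 kPa, 0.07 at 25 kPa/NormOx, 0.11 at 50 kPa, 0.23 at 97 kPa/HypOx and 0.26 at 50 kPa/NormOx, so 4 of the 5 changed sign. The direct contrast with the smallest p in the fit of all arrays was in shoots between 50 kPa and 50 kPa/NormOx, at -0.29 (95% interval -0.60 to 0.01, limma adjusted p = 0.604), where all 3 arrays at 50 kPa lay below the 4 arrays at 50 kPa/NormOx. Without both outlying arrays it was -0.23, and the contrast of 25 kPa with 97 kPa/HypOx in roots, at -0.32 (limma adjusted p = 0.985), had a smaller p. The root response at 25 kPa was 0.56 lower than the shoot response (difference -0.56 ± 0.27, limma adjusted p = 0.57), with an unadjusted p under 0.05 as for 8.69% of all probe sets, and it was -0.26 without root 97 kPa replicate 1.

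A wider list of cell division genes was matched to the annotation, to set the 2 genes among others of the same processes. It held 22 probe sets. They comprised MCM7, CDC27b and CDC2C (found through RefSeq synonyms), the CDK inhibitor SIM, TSO1, 6 matches to a replication list (ICU2, the catalytic subunit of DNA polymerase alpha, POLA3, POLD3, PSF2, TOPII and GEM), 7 genes of mitosis (aurora kinases AUR1, AUR2 and AUR3, the spindle checkpoint genes BUBR1 and BUB3.1, KINESIN-12B, and HTR12, the centromeric histone H3) and the histone H2B genes HTB1, HTB2, HTB4 and HTB11. GEM (AT2G22475) was matched by its symbol alone and is not taken here as a replication enzyme, though it stays in all counts. No one of these 22 passed the study's threshold in any of the 10 responses, 6 direct contrasts or 5 organ differences, where 0 to 0.905% of all probe sets passed it. HTB1 in roots at 97 kPa/HypOx alone passed at an adjusted p under 0.05.

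HTB1, a histone H2B gene, was 8.82, 8.61 and 8.64 in roots at 97 kPa/HypOx, against 9.39, 9.57 and 9.13 at 97 kPa, with no overlap (a share not computed over all probe sets). It fell by 0.67 on the log2 scale (log2 fold change -0.67 ± 0.13, SE, limma adjusted p = 0.0474), in a comparison where 0.437% of all probe sets passed at an adjusted p under 0.05. The adjusted p lay between 0.000804 and 0.73 over 14 alternatives, and it stayed under 0.05 in 6 of them. With the replicate block it was 0.0796, without root 97 kPa replicate 1 it was 0.0879, without root 97 kPa replicate 2 it was 0.115, and without 1 of the 97 kPa/HypOx arrays it was between 0.0988 and 0.222. HTB1 was also 8.68, 8.93 and 8.76 at 25 kPa (log2 fold change -0.57 ± 0.13, limma adjusted p = 0.0981), again below all 3 control arrays. The low-oxygen gene AT3G10040, known as HRA1, the only one of 10 sought that the annotation names, was 4.63, 5.20 and 4.75 in roots at 97 kPa/HypOx, against 4.50, 4.08 and 3.97 at 97 kPa (log2 fold change 0.68 ± 0.19, limma adjusted p = 0.218), without reaching the study's threshold.

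The comparison of 25 kPa with 25 kPa/NormOx, in which oxygen differs at the same pressure, gave the highest count from the wider list in each organ in the fit of all arrays, though not under each alternative. Without both outlying arrays the shoot count was 9, against 10 for 50 kPa with 97 kPa, and with array weights the root count was 7, against 8 for 50 kPa with 97 kPa. At an unadjusted p under 0.05, 5 of the 22 were lower and none was higher at 25 kPa in roots, where 3.58% of all probe sets had such a p (1.86% lower), and 7 were lower and none higher in shoots, where 6.36% had one (3.39% lower). The median log2 fold change over the 22 was -0.36 in roots, against -0.01 over all probe sets tested, and -0.28 in shoots, against -0.00. Over all probe sets 48.7% of the differences were above 0 in roots and 48.8% in shoots. In all, 15 of the 22 had a lower mean in both organs and 1 in neither, a share not computed over all probe sets. Over the alternatives the count ran between 3 and 13 in roots and between 5 and 11 in shoots, and the share of all probe sets was not computed for them. The root side rests on the single 25 kPa/NormOx array, which was the highest of the 15 root arrays for 7 of the 22 and for MCM2, and for 5.24% of all probe sets.

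Those lower in both organs at that p were AUR1, KINESIN-12B and HTB1, 60.0% of the root set and 42.9% of the shoot set. The share of all probe sets lower in both organs at that p was not computed. KINESIN-12B, a motor of the phragmoplast that builds the new cell wall in dividing plant cells, was 4.20, 4.03 and 3.99 in roots at 25 kPa, against 4.70 at 25 kPa/NormOx (log2 fold change -0.63 ± 0.15, SE, limma adjusted p = 0.499). In shoots it was 4.25, 4.51 and 4.50 at 25 kPa, against 5.06, 4.72 and 4.93 at 25 kPa/NormOx (log2 fold change -0.49 ± 0.13, limma adjusted p = 0.302). The groups did not overlap in either organ, with 1 array on the 25 kPa/NormOx side in roots. How many of all probe sets were so separated was not computed. In shoots its unadjusted p stayed under 0.05 in each of the 13 alternatives run. Every root alternative held the single 25 kPa/NormOx array, so none could show how far the root value rests on it. KINESIN-12B was a dim probe set like CDC27a, and the filter on dim probe sets removed it.

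AUR1, an aurora kinase of the mitotic spindle and cell plate, was 7.65, 7.82 and 7.91 in roots at 25 kPa, against 8.46 at 25 kPa/NormOx (log2 fold change -0.67 ± 0.26, limma adjusted p = 1). In shoots it was 7.12, 6.84 and 6.92 at 25 kPa, against 7.58, 7.49 and 7.55 at 25 kPa/NormOx (log2 fold change -0.58 ± 0.19, limma adjusted p = 0.455). Neither pair of groups overlapped, with 1 array on the 25 kPa/NormOx side in roots. How many of all probe sets were so separated was not computed. In roots the unadjusted p of AUR1 was no longer under 0.05 without root 25 kPa replicate 1 (log2 fold change -0.60). HTB1 gave -0.59 ± 0.18 in roots (limma adjusted p = 0.95) and -0.36 ± 0.16 in shoots (limma adjusted p = 0.75), and the shoot arrays overlapped.

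**Figure D3:**
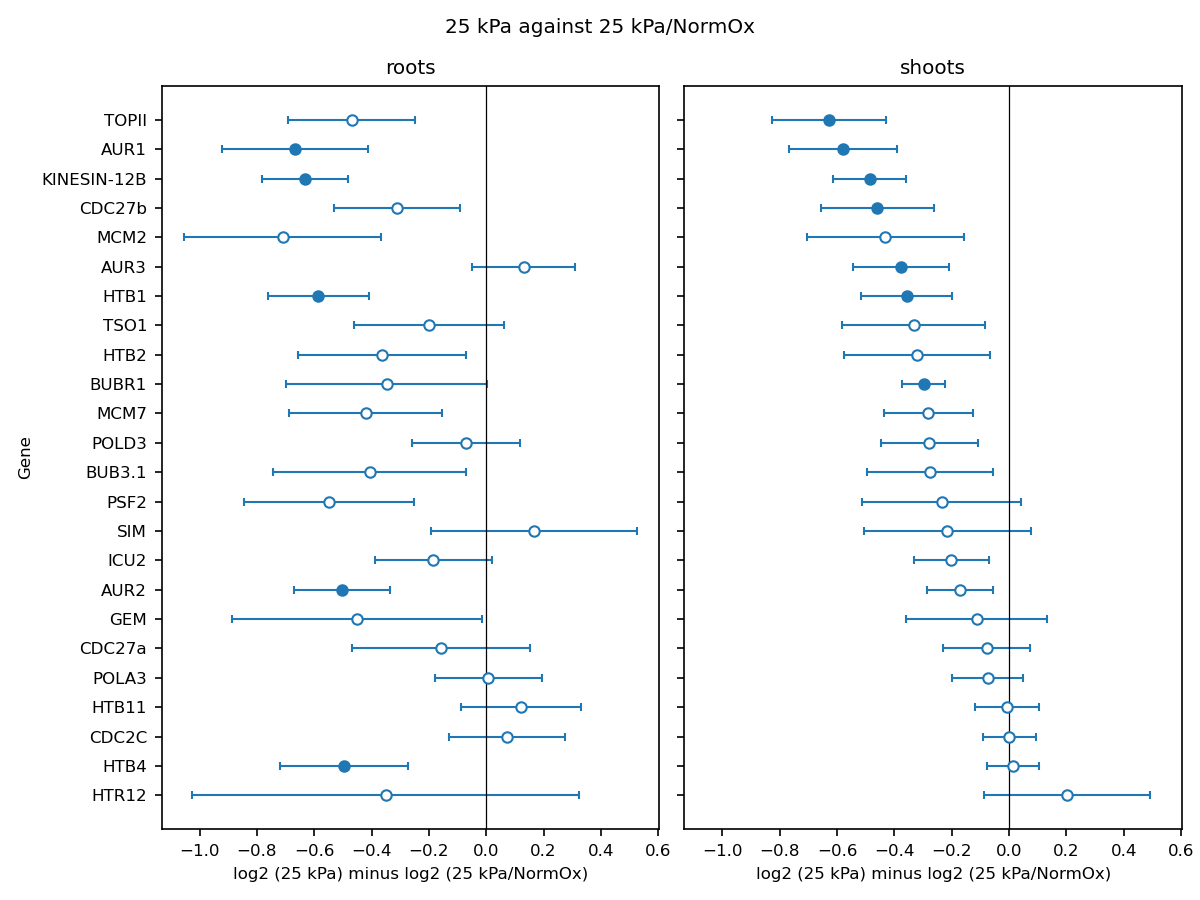
Log2 difference of 25 kPa from 25 kPa/NormOx for MCM2, CDC27a and the 22 further cell division genes in roots (left) and shoots (right), with SE bars and genes in the order of their shoot values. Filled points have an unadjusted limma p under 0.05; no gene passed an adjusted p under 0.05 in either panel. Most points lie left of 0, 17 of 22 in roots and 19 of 22 in shoots apart from MCM2 and CDC27a. Over all probe sets, 48.7% lie right of 0 in roots and 48.8% in shoots.

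MCM2 lay on the same side, at -0.71 in roots and -0.43 in shoots, and CDC27a had -0.16 ± 0.31 in roots and -0.08 ± 0.15 in shoots. MCM7, another subunit of the ring, had -0.42 ± 0.27 in roots (limma adjusted p = 1) and -0.28 ± 0.16 in shoots (limma adjusted p = 0.907). CDC27b had -0.31 ± 0.22 in roots (limma adjusted p = 1) and -0.46 ± 0.20 in shoots (limma adjusted p = 0.726). In the same shoot comparison the shoot marker PORB, an enzyme of chlorophyll synthesis, was 9.21, 9.18 and 9.86 at 25 kPa, against 10.00, 10.21 and 10.17 at 25 kPa/NormOx (log2 fold change -0.71 ± 0.18, limma adjusted p = 0.296), while RCA spanned 12.3 to 12.7 over all shoot arrays. In the root comparison RCA was 6.73, 6.72 and 7.25 at 25 kPa, against 6.01 at 25 kPa/NormOx (log2 fold change 0.89 ± 0.36, limma adjusted p = 1). The meristem marker CLV3, the only one of 13 sought that was named, lay between 4.20 and 4.92 in roots and between 4.31 and 4.56 in shoots. CLV3 was thus dim in both organs, between the lower quartile of all probe sets (4.04 in roots and 4.24 in shoots) and their median. It is not taken here as a measure of meristem content. The part of a changed mix of cells in these differences was not tested.

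Against 97 kPa, the shoot values of the wider list had medians below 0, with 17 of the 22 negative at 97 kPa/HypOx (median -0.09) and 11 of the 22 at 25 kPa/NormOx (median -0.00). Over all probe sets 48.4% of the values were above 0 at 97 kPa/HypOx and 50.5% at 25 kPa/NormOx. At 25 kPa 5 of the 22 had an unadjusted p under 0.05 and all 5 were lower (7.45% of all probe sets had such a p, 3.68% in the lower direction), with a median of -0.22 over the 22 against -0.01 over all probe sets. At 50 kPa the count was 6, all lower (6.08% of all probe sets, 2.6% in the lower direction), with a median of -0.16. At 50 kPa/NormOx 19 of the 22 were below 0, with a median of -0.13, while 52.8% of all probe sets were above 0. The count there was 3, all lower (5.89% of all probe sets, 3.34% in the lower direction). These were MCM7, TSO1 and POLA3, and the count was 1 without the outlying shoot array. Leaving out shoot 97 kPa replicate 2 brought the count to 3 at 25 kPa, to 2 at 50 kPa, and to 1 with restored oxygen at 50 kPa/NormOx. Over all alternatives it ran from 3 to 9 at 25 kPa, from 2 to 10 at 50 kPa, and under 50 kPa/NormOx from 1 to 5. TOPII, the type II topoisomerase that untangles replicated DNA, was 5.74, 5.74 and 5.81 in shoots at 25 kPa and 6.19, 5.98 and 6.15 at 50 kPa, against 6.97, 6.74 and 6.33 at 97 kPa. Its log2 fold change was -0.92 ± 0.20 at 25 kPa (limma adjusted p = 0.119) and -0.57 ± 0.20 at 50 kPa (limma adjusted p = 0.719). TOPII did not overlap with 97 kPa at either pressure, a share not computed over all probe sets. At 50 kPa its unadjusted p was no longer under 0.05 without shoot 97 kPa replicate 1 (-0.43).

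The others at 25 kPa, with their log2 fold changes and SEs, were AUR1 (-0.61 ± 0.19), AUR3 (-0.45 ± 0.17), BUBR1 (-0.29 ± 0.07) and HTB4 (-0.20 ± 0.09). Without shoot 97 kPa replicate 2 AUR1 was -0.33, and AUR3 was -0.32 with an unadjusted p no longer under 0.05. BUBR1, part of the checkpoint that holds anaphase until chromosomes are attached, was 5.15, 5.08 and 5.14 at 25 kPa, against 5.33, 5.44 and 5.47 at 97 kPa (limma adjusted p = 0.165), a small difference with little spread. PORB was 0.66 lower in the same comparison (log2 fold change -0.66 ± 0.18, limma adjusted p = 0.224). At 97 kPa/HypOx 2 of the 22 had such a p in shoots, TOPII (-0.53 ± 0.22) and AUR3 (-0.45 ± 0.19), both lower (log2 fold changes with SEs), where 2.85% of all probe sets did, and at 25 kPa/NormOx 1 was lower and 1 higher, where 2.58% did. At 97 kPa/HypOx TOPII lost that p in 4 of 13 alternatives, among them the replicate block (-0.53), and AUR3 in 3 of 13. Leaving out shoot 97 kPa replicate 2 brought the count there to 0, as did leaving out the first 97 kPa/HypOx replicate. The shoot responses share their 97 kPa arrays.

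The nearest relatives of the 2 genes had values of their own. MCM7 in shoots was 6.67, 6.32 and 6.51 at 50 kPa, 5.96, 6.45, 6.68 and 6.51 at 50 kPa/NormOx, and 6.92, 6.99 and 6.66 at 97 kPa. The log2 fold change of MCM7 was -0.45 ± 0.15 at 50 kPa/NormOx (limma adjusted p = 0.564) and -0.36 ± 0.16 at 50 kPa (limma adjusted p = 0.789), both with an unadjusted p under 0.05, as 5.89% of all probe sets had at 50 kPa/NormOx and 6.08% at 50 kPa, and the value at 50 kPa/NormOx was -0.31 without the outlying shoot array. In roots no response of MCM7 had an unadjusted p under 0.05. Its root response exceeded its shoot response at 50 kPa/NormOx by 0.71 ± 0.25 (limma adjusted p = 0.499), 1 of 6 of the 22 with an unadjusted p under 0.05 there, all 6 higher in roots, where 9.47% of all probe sets had one. Without both outlying arrays the value of MCM7 was 0.46 and the count was 1 of the 22, and with array weights the value was 0.12. The unadjusted p of MCM7 was not under 0.05 in either. No response of CDC27b to any atmosphere had an unadjusted p under 0.05 in the fit of all arrays. Without both outlying arrays its root responses of 0.48 at 25 kPa/NormOx and 0.40 at 50 kPa/NormOx had one (limma adjusted p = 1 for each).

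In roots the count of such values against 97 kPa was between 0 and 2 at each atmosphere in the fit of all arrays. With array weights it was 8 at 50 kPa, 7 at 50 kPa/NormOx, 6 at 25 kPa, 6 at 25 kPa/NormOx and 7 at 97 kPa/HypOx. The share of all probe sets with such a p was not computed for array weights, so these counts cannot be set against it. PSF2, a subunit of the GINS complex that works with the MCM ring, was 4.48, 5.24 and 4.90 at 50 kPa and 5.33 at 25 kPa/NormOx, against 4.05, 4.28 and 4.72 at 97 kPa. The log2 fold change of PSF2 was 0.52 ± 0.21 at 50 kPa (limma adjusted p = 0.427), the only one of the 22 with an unadjusted p under 0.05 there, where 11.2% of all probe sets had one, and it lost it in 6 of 13 alternatives. At 25 kPa/NormOx PSF2 had 0.98 ± 0.30 (limma adjusted p = 0.774) and KINESIN-12B 0.45 ± 0.15 (limma adjusted p = 0.774), the 2 genes under 0.05 there, where 3.96% of all probe sets were. At 25 kPa the 2 were HTB1 and TOPII (log2 fold change -0.45, limma adjusted p = 0.268, and -0.31 without root 97 kPa replicate 1), both lower, where 15% of all probe sets were. At 97 kPa/HypOx they were HTB1 and AUR2 (log2 fold change -0.26, limma adjusted p = 0.468), where 10.5% were. At 50 kPa/NormOx none of the 22 had an unadjusted limma p under 0.05.

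Array by array, MCM2 varied with several of these genes within an organ. The relation was computed for the 22 genes in each organ (44 relations), without the 2 outlying arrays and with permutation tests of 100000 resamples. Arrays were permuted across atmospheres, so differences between atmospheres enter these p-values. PSF2 gave Pearson's r = 0.679 in roots (14 arrays, permutation p = 0.00772, adjusted p = 0.0377) and Spearman's rho = 0.675 (permutation p = 0.0102, adjusted p = 0.0497). In shoots it gave r = 0.808 (17 arrays, permutation p = 3e-05, adjusted p = 0.00132) and rho = 0.821 (permutation p = 0.00012, adjusted p = 0.00528). Without the 2 arrays farthest from the median of MCM2, r was 0.738 in roots and 0.715 in shoots.

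POLD3, a subunit of DNA polymerase delta, gave r = 0.671 (permutation p = 0.00863, adjusted p = 0.038) and rho = 0.776 (permutation p = 0.0018, adjusted p = 0.0158) in roots. In shoots it gave r = 0.711 (permutation p = 0.00125, adjusted p = 0.0137) and rho = 0.784 (permutation p = 0.00035, adjusted p = 0.0077). Without the 2 farthest arrays r was 0.762 in roots and 0.747 in shoots. POLD3 was dim, with root group means from 4.09 to 4.30, and those of PSF2 ran from 4.35 to 5.33. PSF2 and POLD3 were the only ones of the 22 whose r and rho both had an adjusted p under 0.05 in both organs, out of 3 such genes in roots and 5 in shoots. In all, 16 of the 22 values of r were positive in roots and 20 in shoots, with medians of 0.331 in roots and 0.52 in shoots. Over 13421 other probe sets with a single named gene, r was positive for 50.5% in roots (median 0.00631) and 51.3% in shoots (median 0.0185). Among those probe sets the r of PSF2 lay at percentile 98.4 in roots and 99.3 in shoots, and that of POLD3 at 98.2 in roots and 96.9 in shoots, so many other genes had an r as high. MCM7 gave r = 0.408 in roots (permutation p = 0.145, adjusted p = 0.246) with rho = 0.541 (permutation p = 0.048, adjusted p = 0.132). In shoots MCM7 gave r = 0.342 (permutation p = 0.179, adjusted p = 0.281) with rho = 0.174 (permutation p = 0.503, adjusted p = 0.707).

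**Figure D4:**
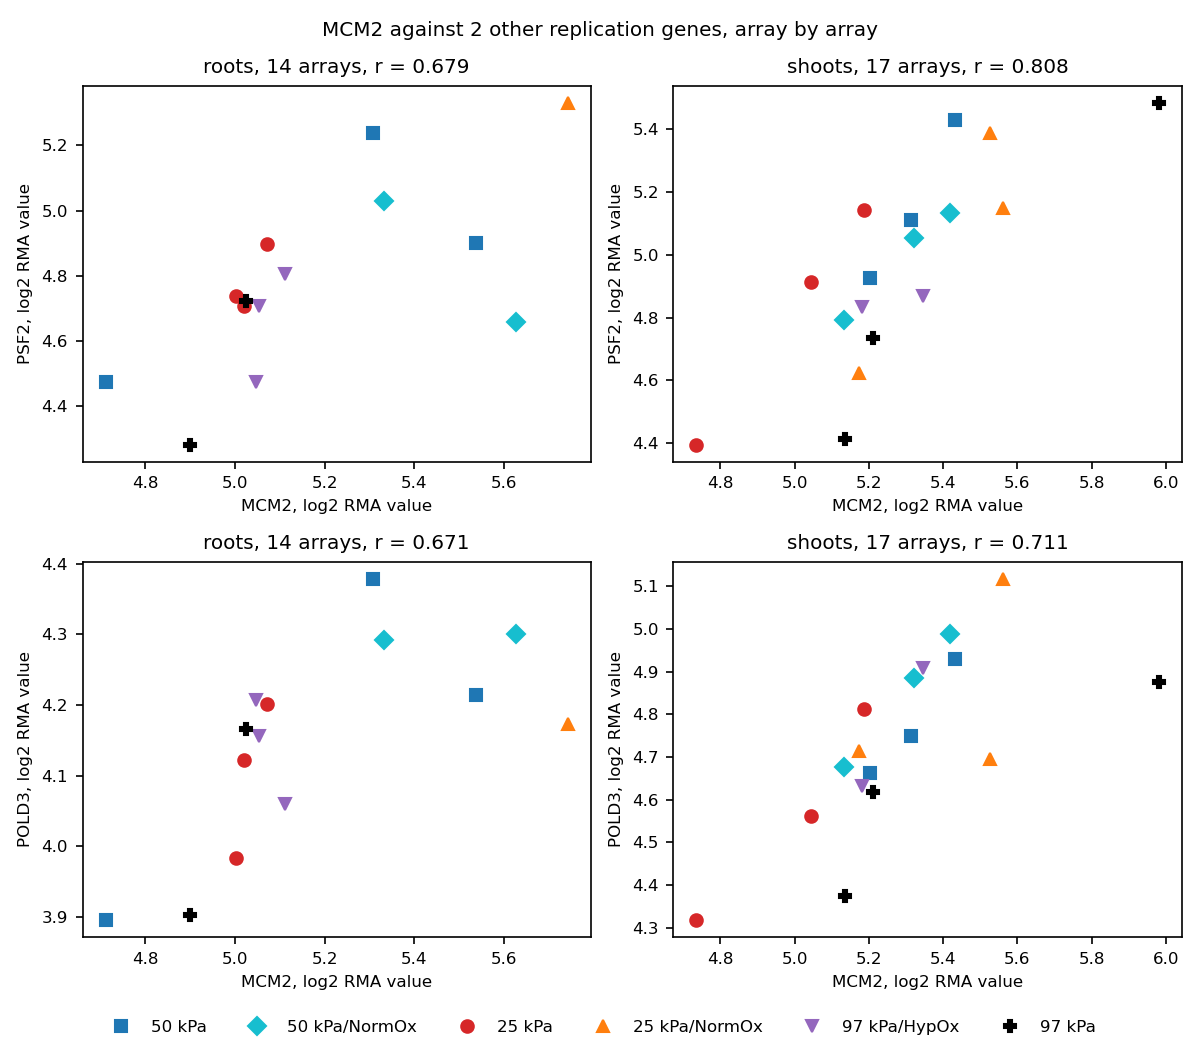
Log2 RMA values of PSF2 (upper panels) and POLD3 (lower panels) against those of MCM2 in 14 root and 17 shoot arrays, with a marker for each atmosphere and without the 2 outlying arrays. The points slope upward in all 4 panels (r between 0.671 and 0.808). In roots the arrays at 25 kPa (MCM2 from 5.00 to 5.07) and at 97 kPa/HypOx (from 5.05 to 5.11) hardly differ in MCM2 and do not spread along the slope.

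The relation was also computed within atmospheres, without a test. After the mean of each atmosphere was taken off (13 root arrays, since 25 kPa/NormOx has 1, and 17 shoot arrays), r between MCM2 and PSF2 was 0.489 in roots and 0.945 in shoots, and between MCM2 and POLD3 it was 0.674 in roots and 0.811 in shoots. Over the 22 genes r was then positive for 10 in roots (median -0.133) and 18 in shoots (median 0.457). The root values farthest from 0 were negative, at -0.848 for TSO1, -0.79 for HTR12, -0.781 for CDC2C and -0.701 for POLA3. Before the means were taken off, BUB3.1 gave r = 0.85 in shoots (permutation p = 0.00012, adjusted p = 0.00264) with rho = 0.632 (permutation p = 0.00766, adjusted p = 0.0481), and r was 0.588 without the 2 farthest arrays. Likewise before that step, AUR1 gave r = 0.818 in shoots (permutation p = 0.00018, adjusted p = 0.00264) with rho = 0.574 (permutation p = 0.0175, adjusted p = 0.072), and r was 0.521 without those 2 arrays. In roots AUR1 gave r = 0.257 over all 14 arrays used (permutation p = 0.373, adjusted p = 0.456) with rho = -0.0374 (permutation p = 0.905, adjusted p = 0.905). The difference of r between organs was not tested.

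Among the same 13421 probe sets, the highest r with MCM2 was for Hop1 in roots (0.876), and Hop1 was second in shoots (0.945) after AT5G05180 (0.949). Hop1 encodes a co-chaperone that links HSP70 and HSP90. The next in roots were AT4G33905 (0.862) and AT1G05440 (0.861), and the next in shoots were AT2G37420 (0.941) and AT1G10780 (0.921). The highest r with CDC27a was 0.805 in roots (AT3G46490) and 0.849 in shoots (AT2G10650), and its 5 highest differed between the organs. These values of Pearson's r are a description over 14 root and 17 shoot arrays, which share 1 normalization in each organ, with no test.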

How the data were processed

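The authors hybridised RNA from roots and shoots to Affymetrix ATH1 arrays and deposited log2 values of 22746 probe sets, normalized by Robust Multi-chip Average (RMA) separately over the 15 root and the 18 shoot arrays. Per the labels, Affymetrix Expression Console was used, and its version is not given in the sources used here. RMA gives no count of molecules, so precision is limited by the number of arrays, and its quantile step would hide a shift common to all genes. Groups and replicate numbers came from the sample titles. P-values measure the spread between tubes and chambers, and the fits took every array as independent. That includes the 4 shoot arrays at 50 kPa/NormOx, some of which share a chamber. Root and shoot arrays of 1 atmosphere, which may share chambers, were also taken as independent in the root minus shoot differences.

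For each organ a linear model with 6 atmospheres was fitted with limma 3.58.1 in R 4.3.3 after 101 organelle probe sets were removed. The model gave 10 differences from 97 kPa and 6 direct contrasts, and a model of all 33 arrays gave 5 root minus shoot differences. The study's threshold was an unadjusted p under 0.01 and a log2 change of at least 1. Benjamini-Hochberg adjustment ran over the 22645 probe sets left. The shares of all probe sets that passed a threshold were computed in the fit of all arrays only, not under the alternatives. How many of all probe sets had groups without overlap was not computed for any comparison. A 1-array group borrows the spread of the other groups. The scripts were tested on simulated data.

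The genes and lists were chosen with earlier results of these data known. Values in every array are given for the 2 genes found by the rule. Other genes were named where a count of 5 or fewer called for it, and the rest, with the correlation of MCM2 and its nearest genes, were chosen after values were seen. Of the lists sought, 17 transcriptional regulators gave 1 probe set (TSO1), 27 further CDK regulators 2, 44 replication enzymes 6 and 29 mitosis genes 7. A histone list of 5 entries gave 5 probe sets, which are not all histone genes. In these counts 1 probe set can stand in 2 lists. Alternatives were array weights, centring on array medians, keeping organelle probe sets, fitting only the arrays compared, a trended and robust variance, removing probe sets with a mean under 5, the replicate number as a block, leaving out each array and, chosen after seeing the data, leaving out both outlying arrays.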

Additional observations from a re-analysis of the deposited data

Results flagged for a closer look

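For MCM2 the root and shoot responses differed by an interaction test at 3 atmospheres (limma, unadjusted p under 0.05). The root minus shoot difference was 0.813 at 25 kPa (limma adjusted p = 0.566), 1.09 at 25 kPa/NormOx (limma adjusted p = 0.969, from 1 root array) and 1.23 at 50 kPa/NormOx (limma adjusted p = 0.499). For CDC27a it was -0.563 at 25 kPa (limma adjusted p = 0.57). All 4 differences use the 97 kPa arrays, including the outlying root array, where MCM2 was the lowest and CDC27a the highest of the root arrays. None had an adjusted p under 0.05.

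Within the 4 shoot arrays at 50 kPa/NormOx, replicate 1 lay far from the other three for 4 of 30 genes tested, by Dixon's test at the 95% level, which chance alone passes in about 1 of 20 groups. These were BUB3.1 (5.851), GEM (4.628), ICU2 (4.244) and the root hair marker EXPA18 (6.71). MCM2 on the same array was 4.23, the lowest of all shoot arrays, without passing that test. The part of root tissue in this array was not tested.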

How the results depend on the processing

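Centring arrays on their median and keeping organelle probe sets changed no call and no direction of the 42 values of MCM2 and CDC27a. The other settings and single arrays changed those given here, and the causes were not tested.

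With array weights, CDC27a in roots turned to 0.065 at 25 kPa/NormOx, 0.10 at 50 kPa, 0.26 at 50 kPa/NormOx and 0.25 at 97 kPa/HypOx, its root minus shoot difference to 0.20 at 50 kPa, 0.14 at 50 kPa/NormOx and 0.16 at 97 kPa/HypOx, and its shoot contrast of 25 kPa with 25 kPa/NormOx to 0.094. MCM2 in shoots turned to 0.16 at 25 kPa/NormOx and to -0.00377 between 50 kPa and 50 kPa/NormOx. MCM7 turned to -0.11 at 25 kPa/NormOx, -0.28 at 50 kPa and -0.14 at 50 kPa/NormOx in roots and to 0.028 in shoots at 25 kPa/NormOx, and CDC27b to 0.058 in shoots at 50 kPa/NormOx and 0.062 at 97 kPa/HypOx. The call of MCM2 in roots at 25 kPa/NormOx was lost with array weights (0.86), with only the arrays compared (1.07) and with a trended and robust variance (1.07), and that of its root minus shoot difference at 50 kPa/NormOx with array weights (0.62).

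Without both outlying arrays, CDC27a in roots was 0.066 at 25 kPa/NormOx, 0.11 at 50 kPa, 0.26 at 50 kPa/NormOx and 0.23 at 97 kPa/HypOx, and its root minus shoot difference 0.26 at 50 kPa, 0.17 at 50 kPa/NormOx and 0.16 at 97 kPa/HypOx. MCM2 was 0.78 in roots at 25 kPa/NormOx and 0.67 in the root minus shoot difference at 50 kPa/NormOx, with both calls lost. MCM7 in roots at 50 kPa was -0.017 and CDC27b in shoots at 50 kPa/NormOx was 0.00407.

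Leaving out 1 array at a time, MCM2 ran from 0.78 to 1.25 in roots at 25 kPa/NormOx, from 0.93 to 1.40 in the root minus shoot difference at 50 kPa/NormOx, and in shoots from -0.18 to 0.25 at 25 kPa/NormOx, from -0.28 to 0.14 at 50 kPa and from -0.33 to 0.090 at 97 kPa/HypOx. CDC27a in roots ran from -0.40 to 0.066 at 25 kPa/NormOx, from -0.36 to 0.11 at 50 kPa, from -0.21 to 0.26 at 50 kPa/NormOx and from -0.24 to 0.23 at 97 kPa/HypOx. Its root minus shoot difference ran from -0.21 to 0.26 at 50 kPa, from -0.36 to 0.11 at 50 kPa/NormOx and from -0.31 to 0.16 at 97 kPa/HypOx, and its shoot contrast of 25 kPa with 25 kPa/NormOx from -0.17 to 0.10. CDC27b ran from -0.016 to 0.17 in roots at 25 kPa, from -0.034 to 0.23 in roots at 50 kPa, from -0.20 to 0.00407 in shoots at 50 kPa/NormOx and from -0.098 to 0.081 in shoots at 97 kPa/HypOx. MCM7 ran from -0.25 to 0.12 at 25 kPa, from -0.036 to 0.33 at 50 kPa and from -0.14 to 0.23 at 97 kPa/HypOx in roots, and from -0.10 to 0.062 in shoots at 25 kPa/NormOx.

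The replicate numbers were not used as pairs in the main fit. Deviations of same-numbered arrays from their group means had a median r of 0.0991 in roots (13 of 26 pairs over 0.1) and -0.0263 in shoots (12 of 40). For arrays of different number it was -0.0471 in roots (14 of 52) and 0.0127 in shoots (31 of 94), so same-numbered root arrays were somewhat more alike. Pairing between root and shoot arrays was not tested. With the replicate block the root minus shoot difference of MCM2 at 25 kPa/NormOx was 1.31 and passed the study's threshold, CDC27a in shoots at 97 kPa/HypOx was -0.00657, and CDC27b there was 0.029. No other call of MCM2 or CDC27a changed with the block.

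The filter on dim probe sets removed CDC27a and KINESIN-12B, and the only root array at 25 kPa/NormOx could not be left out. AUR1, KINESIN-12B, BUBR1 and TOPII in the shoot contrast of 25 kPa with 25 kPa/NormOx kept an unadjusted p under 0.05 in each alternative run, and HTB1 there lost it in 6 of 14.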
